A study of Homo sapiens with 9 samples.

Results

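NFE2L2, KEAP1 and 7 genes known as targets of the transcription factor NRF2 (NQO1, GCLC, GCLM, TXNRD1, SRXN1, HMOX1 and AKR1C1) were followed in LIM1215 colorectal cancer cells and their cetuximab-resistant derivatives. The 9 genes were taken by symbol from the 58920 genes listed in the count tables. Their symbols, rather than a threshold on their values, defined the group, and earlier results of these data were known when it was drawn up. All 9 reached the minimum of 10 counts summed over the libraries, as did 19102 genes in all, and these were tested. LIM1215 is a human colorectal cancer cell line, and cetuximab is an antibody that blocks the epidermal growth factor receptor. LIM1215-R1 and LIM1215-R2 were selected in parallel under gradually rising cetuximab, while LIM1215-parental cells were passaged alongside without the antibody. The resistant lines are mixed populations rather than clones, both described as carrying HRAS mutations in subpopulations. RNA was taken from untreated cultures of all 3 lines, grown in the same medium, and sequenced in 3 libraries per line. Between experiments only the resistant lines were kept in cetuximab. How long before RNA isolation it was withdrawn is not stated. The study calls its replicates technical, so p-values measure only the spread between these libraries, and a difference between lines cannot be told apart from a difference between the cultures or harvests they came from.

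NRF2, the product of NFE2L2, is a transcription factor that pairs with small MAF proteins and binds antioxidant response elements in front of genes for detoxification and thiol metabolism. KEAP1 holds NRF2 in the cytoplasm and hands it to a CUL3 ubiquitin ligase for degradation, and oxidants or electrophiles that modify KEAP1 let NRF2 accumulate. Because this control acts mainly on the protein, the mRNA of NFE2L2 does not by itself report NRF2 activity, which is why target mRNAs are commonly read as a panel.

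The panel did not move as a block in either resistant line. In LIM1215-R1 and in LIM1215-R2, NQO1, GCLM, TXNRD1 and SRXN1 rose, NFE2L2, GCLC, HMOX1 and AKR1C1 fell, and KEAP1 did not pass the test. The largest increase among the 9 genes was that of SRXN1, 1.84-fold in LIM1215-R1 and 1.64-fold in LIM1215-R2, and the largest decrease that of AKR1C1, 7.03-fold in LIM1215-R1 and 4.58-fold in LIM1215-R2. A gene passed the test at an adjusted p of 0.01 or less (edgeR quasi-likelihood test, two-sided, Benjamini-Hochberg adjustment over all genes tested). In LIM1215-R1, 4 of the 9 genes were higher against 14.0% of all genes tested, and 4 were lower against 13.4%. In LIM1215-R2, 4 were higher against 12.3% and 4 were lower against 11.6%. These shares include weakly counted genes, whereas every one of the 9 averaged 146 counts or more per library. Of the 10085 genes that averaged 100 counts or more, 20.2% rose and 20.0% fell in LIM1215-R1, and the shares for LIM1215-R2 were 18.1% and 16.8%. A differentially expressed gene (DEG) also had a log2 fold change of 1.5 or more in either direction. By this rule 1 of the 9 genes, AKR1C1, was a DEG in LIM1215-R1, where 5.14% of all genes tested were, and again 1, AKR1C1, in LIM1215-R2, where 4.82% were. The median log2 fold change over the 9 genes was 0.05 in LIM1215-R1 and 0.03 in LIM1215-R2, beside −0.0106 and −0.0037 over all genes tested. With 4 genes up and 4 down, this median is simply the value of the regulator KEAP1. Among the 7 targets alone, the middle value was that of GCLM in LIM1215-R1, 0.29, and that of TXNRD1 in LIM1215-R2, 0.24. GCLC, HMOX1 and AKR1C1 lay below 0 in both lines. Both comparisons use the same parental libraries, so that the like directions in the resistant lines are not independent observations. In these bulk samples, fewer cells that express a gene and less of its RNA per cell cannot be told apart.

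**Figure D1:**
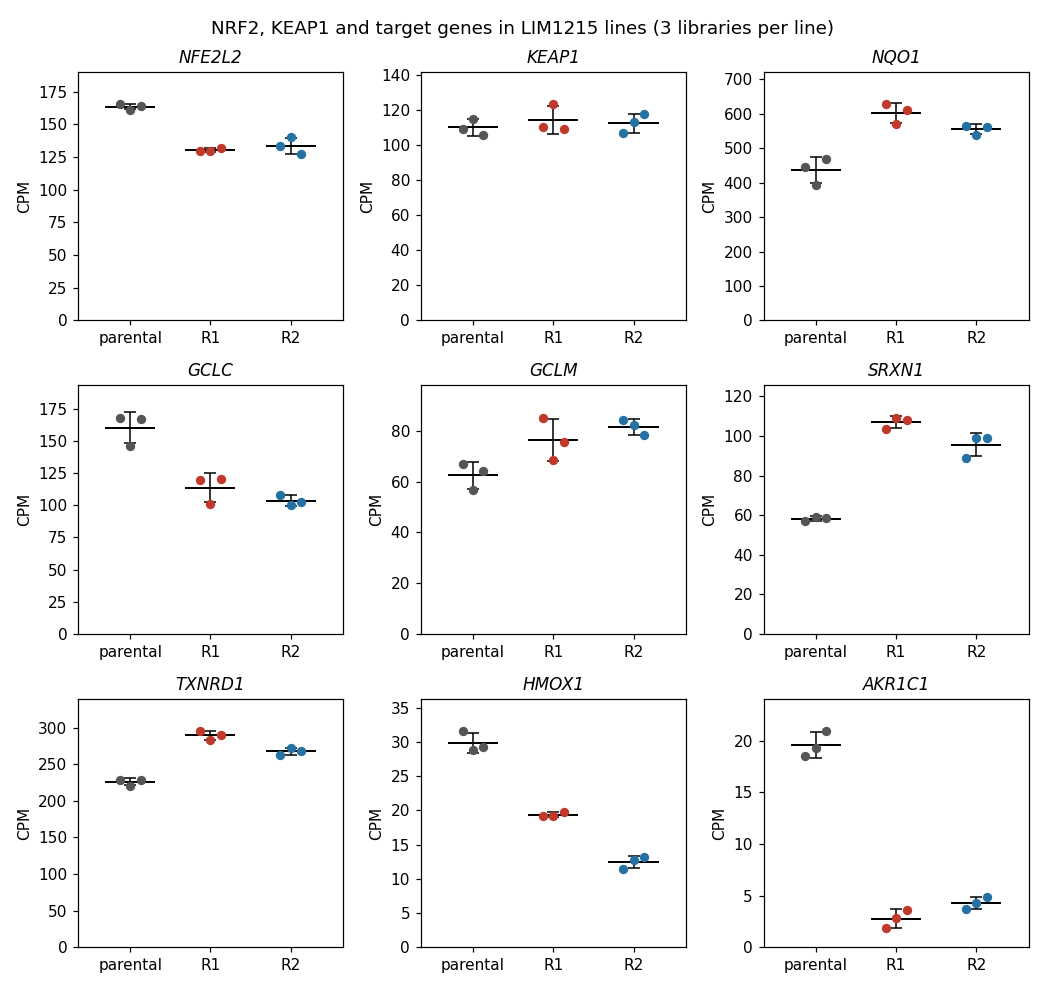
Level in CPM (counts per 1000000, y axis from 0) of the 9 genes in LIM1215-parental, LIM1215-R1 and LIM1215-R2, with 1 point per library and the mean and SD of 3 libraries as lines. SRXN1, NQO1, TXNRD1 and GCLM sit higher in both resistant lines, NFE2L2, GCLC, HMOX1 and AKR1C1 sit lower, and the KEAP1 points of the 3 lines overlap.

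Levels are given as counts per 1000000 counts of a library after TMM scaling (CPM). Library totals lay between 13737416 and 18725014 counts, so that 3 counts in a library corresponded to 0.160 to 0.218 CPM. Mitochondrial protein-coding genes took 6.36% to 6.52% of the counts in parental libraries and 5.93% to 6.29% in resistant ones, which were all lower. Of 10 markers of colorectal epithelium, 9 were expressed, and KRT20 had 0 counts in all 9 libraries. Their summed level was 12811 ± 197 CPM (SD, n = 3) in parental cells, against 16227 ± 163 for LIM1215-R1 and 14861 ± 229 for LIM1215-R2. KRT8, KRT18, KRT19 and VIL1 rose in both resistant lines, and EPCAM, CDX1, CDX2 and LGALS4 fell. The 12 markers of fibroblasts, endothelium and blood cells summed to between 9.03 and 15.3 CPM per library, mostly CD68, with COL1A2, PTPRC and CD3E at 0 counts. The part of these differences in the results was not tested.

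Divided by the length of the main (MANE) transcript in kilobases, NQO1 had the highest level of the 9 genes in LIM1215-parental, at 173 CPM per kb. NFE2L2 followed at 66.9, TXNRD1 at 58.5, KEAP1 at 42.9 and GCLC at 42.4 CPM per kb. SRXN1 at 23.0, HMOX1 at 19.2, GCLM at 12.8 and AKR1C1 at 2.99 CPM per kb completed the order. KEAP1 and GCLC, neighbours in this order, did not differ beyond the spread of their libraries. In LIM1215-R1 the order changed, with TXNRD1 at 74.9 CPM per kb above NFE2L2 at 53.4, and SRXN1 at 42.4 above GCLC at 30.0. GCLM at 15.7 CPM per kb stood above HMOX1 at 12.5 there, and in LIM1215-R2 GCLM stood at 16.7 and HMOX1 at 8.03. These levels assume that the main transcript is the one expressed, and the main transcript of AKR1C1 is the longest of the 9 at 6543 bases.

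Promoter sequences were searched for the textbook element close to the start of these genes. The windows below run 250 bases up to the transcription start, from RefSeq (GRCh38.p14), 5′ to 3′ on the strand of the gene. GCLM and TXNRD1, which rose, hold a match to the core of the antioxidant response element, TGACNNNGC on either strand, and it is printed in capitals. SRXN1, which rose most, and GCLC and AKR1C1, which fell, hold none in these windows. The GCLM window is chr1:93909431-93909680 on the minus strand, and its last 26 bases lie in an exon of the GENCODE annotation. The TXNRD1 window, before the first of the 2 starts, is chr12:104215529-104215778 on the plus strand. The SRXN1 window is chr20:653201-653450 and the GCLC window chr6:53545102-53545351, both on the minus strand. For AKR1C1 only the 88 bases outside annotated exons are shown, chr10:4963165-4963252 on the plus strand.
GCLM: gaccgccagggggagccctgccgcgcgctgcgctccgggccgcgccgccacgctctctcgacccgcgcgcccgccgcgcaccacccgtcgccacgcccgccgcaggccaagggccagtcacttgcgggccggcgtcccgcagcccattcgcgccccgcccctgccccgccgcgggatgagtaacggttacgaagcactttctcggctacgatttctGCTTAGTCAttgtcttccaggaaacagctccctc
TXNRD1: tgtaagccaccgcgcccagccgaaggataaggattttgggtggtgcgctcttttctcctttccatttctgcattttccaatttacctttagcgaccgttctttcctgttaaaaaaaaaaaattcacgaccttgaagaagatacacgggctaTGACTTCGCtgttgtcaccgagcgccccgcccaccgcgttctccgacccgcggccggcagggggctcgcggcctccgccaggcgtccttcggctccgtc
SRXN1: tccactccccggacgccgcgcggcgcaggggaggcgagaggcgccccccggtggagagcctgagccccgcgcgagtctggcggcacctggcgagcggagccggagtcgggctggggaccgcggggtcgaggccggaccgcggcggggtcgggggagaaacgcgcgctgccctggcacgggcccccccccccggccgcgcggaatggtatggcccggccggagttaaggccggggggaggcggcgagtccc
GCLC: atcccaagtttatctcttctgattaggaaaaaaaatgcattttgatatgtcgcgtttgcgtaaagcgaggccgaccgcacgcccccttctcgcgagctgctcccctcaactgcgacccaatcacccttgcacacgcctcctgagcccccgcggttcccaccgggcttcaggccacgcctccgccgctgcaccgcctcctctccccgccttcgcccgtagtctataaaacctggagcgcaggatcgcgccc
AKR1C1: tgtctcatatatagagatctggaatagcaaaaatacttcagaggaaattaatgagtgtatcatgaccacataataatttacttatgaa

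The match in the GCLM window reads GCTTAGTCA on the printed strand, which is the core on the opposite strand, and starts 34 bases before the transcription start. In the TXNRD1 window TGACTTCGC starts 99 bases before it. RefSeq windows were at hand for 8 of the 9 genes, 11 windows in all, and not for HMOX1. The core was found in 4 of these 11 windows, those of GCLM, both starts of TXNRD1 and 1 of the 2 starts of KEAP1. It was in 10.9% of 35116 promoter windows of all genes and in 14.7% of 95 windows of 5 other lists of redox genes, described below. TXNRD1 counts for both of its starts here, and the window of its other start lies wholly in annotated exons. Of the KEAP1 window with a match, 125 of 250 bases are exonic. The windows of NFE2L2, NQO1, SRXN1, GCLC and AKR1C1 had no match. The AP-1 motif TGACTCA, which can overlap an antioxidant response element, was in 0 of the 11 windows and in 4.2% of all windows. A match describes letters and not a bound site, and the windows leave out elements farther from the start.

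Of the 2 regulators, NFE2L2 fell in both resistant lines and KEAP1 did not pass. NFE2L2 lies on chromosome 2 at 177218667 to 177392756 (hg38, minus strand). It was read at 165, 161 and 164 CPM in the parental libraries, at 130, 129 and 132 CPM in LIM1215-R1, and at 133, 140 and 127 CPM in LIM1215-R2. Every resistant library was below every parental library, and the resistant lines overlapped each other. The mean fell from 164 ± 2.23 CPM (SD, n = 3) to 130.5 ± 1.58 in LIM1215-R1, with a log2 fold change of −0.33 ± 0.05 (SE) with adjusted p = 4.15e-06 in edgeR's quasi-likelihood test. LIM1215-R2 stood at 134 ± 6.35 CPM, a log2 fold change of −0.29 ± 0.05 with adjusted p = 1.99e-05 in the same edgeR test. The resistant lines differed by 0.03 on the log2 scale (LIM1215-R2 minus LIM1215-R1, 95% interval −0.07 to 0.13). NFE2L2 overlaps AGPS and HNRNPA3 on the opposite strand, and the libraries were stranded and counted by strand.

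KEAP1, on chromosome 19 at 10486125 to 10503558 (minus strand), gave 109, 115 and 106 CPM in the parental libraries, 110, 123 and 109 CPM in LIM1215-R1, and 107, 113 and 118 CPM in LIM1215-R2. The values of the 3 lines overlapped throughout. The log2 fold change was 0.05 in LIM1215-R1 (95% interval −0.06 to 0.17, adjusted p = 0.513 in edgeR) and 0.03 in LIM1215-R2 (−0.08 to 0.15, adjusted p = 0.731 in edgeR). A change of KEAP1 mRNA beyond these intervals was not seen, and a smaller one was not detectable with these libraries.

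Glutamate-cysteine ligase, the rate-limiting enzyme of glutathione synthesis, is built from a catalytic subunit encoded by GCLC and a modifier subunit encoded by GCLM, and the mRNAs of these subunits moved in opposite directions. GCLC, on chromosome 6 at 53497341 to 53616970 (minus strand), gave 168, 146 and 167 CPM in the parental libraries, 120, 101 and 121 CPM in LIM1215-R1, and 108, 99.97 and 103 CPM in LIM1215-R2. All resistant libraries lay below all parental ones, and replicate 2 was the lowest library in every line. GCLC was 1.41-fold lower in LIM1215-R1 (log2 fold change −0.50 ± 0.06 SE, edgeR adjusted p = 3.91e-07) and 1.55-fold lower in LIM1215-R2 (−0.63 ± 0.06, edgeR adjusted p = 6.18e-09).

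GCLM, on chromosome 1 at 93885199 to 93909456 (minus strand), gave 66.8, 56.6 and 64.3 CPM in the parental libraries, 85.2, 68.7 and 75.6 CPM in LIM1215-R1, and 84.1, 82.3 and 78.3 CPM in LIM1215-R2. The lowest LIM1215-R1 library stood just above the highest parental one, and the LIM1215-R2 libraries were clear of the parental range. The log2 fold change was 0.29 ± 0.07 (SE, edgeR adjusted p = 0.00196) in LIM1215-R1 and 0.38 ± 0.07 (edgeR adjusted p = 9.9e-05) in LIM1215-R2. The increase in LIM1215-R1 did not pass without parental replicate 2 (0.22, edgeR adjusted p = 0.011) or without LIM1215-R1 replicate 1 (0.20, edgeR adjusted p = 0.0227).

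Within each library, the CPM of GCLC divided by that of GCLM cancels differences that both genes share. This ratio was 2.51, 2.58 and 2.60 in the parental libraries, 1.41, 1.47 and 1.59 in LIM1215-R1, and 1.28, 1.21 and 1.31 in LIM1215-R2. The 3 ranges did not overlap, and parental replicate 2, the low library for both genes, was not low in the ratio. The means were 2.56 ± 0.04 (SD, n = 3), 1.49 ± 0.10 and 1.27 ± 0.05. No test was run on the ratio, and an exact permutation test of 3 libraries against 3 cannot go below p = 0.10. It is a ratio of counts, not of subunits, as the transcripts differ in length.

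SRXN1 and TXNRD1, which serve the thioredoxin system, rose in both resistant lines. SRXN1 encodes sulfiredoxin, which restores overoxidised peroxiredoxins, and lies on chromosome 20 at 646615 to 653200 (minus strand). It gave 57.0, 59.2 and 58.5 CPM in the parental libraries, 104, 109 and 108 CPM in LIM1215-R1, and 88.8, 99.0 and 99.0 CPM in LIM1215-R2. All 3 lines were separate, with LIM1215-R1 on top. The log2 fold change was 0.88 ± 0.06 (SE, edgeR adjusted p = 8.2e-13) in LIM1215-R1 and 0.71 ± 0.06 (edgeR adjusted p = 6.51e-11) in LIM1215-R2. Another protein-coding gene of GENCODE, without a symbol, overlaps SRXN1 on the same strand. No counts were listed for it, and its part in the count of SRXN1 was not tested.

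TXNRD1, the cytosolic thioredoxin reductase, lies on chromosome 12 at 104215779 to 104350307 (plus strand). It gave 229, 220 and 229 CPM in the parental libraries, 295, 283 and 290 CPM in LIM1215-R1, and 263, 272 and 268 CPM in LIM1215-R2. The order of the lines was that of SRXN1, again without overlap, at smaller differences. The log2 fold change was 0.36 ± 0.04 (SE, edgeR adjusted p = 1.26e-07) in LIM1215-R1 and 0.24 ± 0.04 (edgeR adjusted p = 4.18e-05) in LIM1215-R2. A processed pseudogene, RPL18AP3, lies on the same strand within TXNRD1 and had 2853 counts over the 9 libraries, so reads could have been divided between the 2 genes.

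NQO1, a quinone reductase used as a standard readout of NRF2, lies on chromosome 16 at 69706996 to 69726668 (minus strand). It gave 446, 394 and 469 CPM in the parental libraries, 627, 569 and 609 CPM in LIM1215-R1, and 564, 538 and 562 CPM in LIM1215-R2. Every resistant library was above the highest parental one, and all LIM1215-R2 libraries were just below the lowest of LIM1215-R1. NQO1 was 1.38-fold higher in LIM1215-R1 (log2 fold change 0.46 ± 0.05 SE, edgeR adjusted p = 2.33e-08) and 1.27-fold higher in LIM1215-R2 (0.34 ± 0.05, edgeR adjusted p = 3.24e-06).

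HMOX1, heme oxygenase 1, breaks heme down to biliverdin, iron and carbon monoxide and is known to answer both NRF2 and the repressor BACH1. It lies on chromosome 22 at 35380361 to 35394214 (plus strand). It gave 31.6, 28.9 and 29.2 CPM in the parental libraries, 19.2, 19.3 and 19.8 CPM in LIM1215-R1, and 11.5, 12.7 and 13.3 CPM in LIM1215-R2. The 3 lines formed 3 separate steps downward from parental over LIM1215-R1 to LIM1215-R2. HMOX1 was 1.54-fold lower in LIM1215-R1 (log2 fold change −0.62 ± 0.08 SE, edgeR adjusted p = 4.78e-07) and 2.40-fold lower in LIM1215-R2 (−1.26 ± 0.09, edgeR adjusted p = 2.2e-12).

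AKR1C1, an aldo-keto reductase of steroids and reactive carbonyls, lies on chromosome 10 at 4963253 to 4983283 (plus strand). It gave 18.5, 19.3 and 20.9 CPM in the parental libraries, 1.84, 2.89 and 3.63 CPM in LIM1215-R1, and 3.69, 4.27 and 4.90 CPM in LIM1215-R2. The parental values were several times those of any resistant library, and the LIM1215-R2 range began just above that of LIM1215-R1. The log2 fold change was −2.81 ± 0.15 (SE, edgeR adjusted p = 1.87e-14) in LIM1215-R1 and −2.19 ± 0.14 (edgeR adjusted p = 7.04e-13) in LIM1215-R2. These levels rest on 267 to 398 counts per parental library, 30 to 58 in LIM1215-R1 and 62 to 75 in LIM1215-R2.

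**Figure D2:**
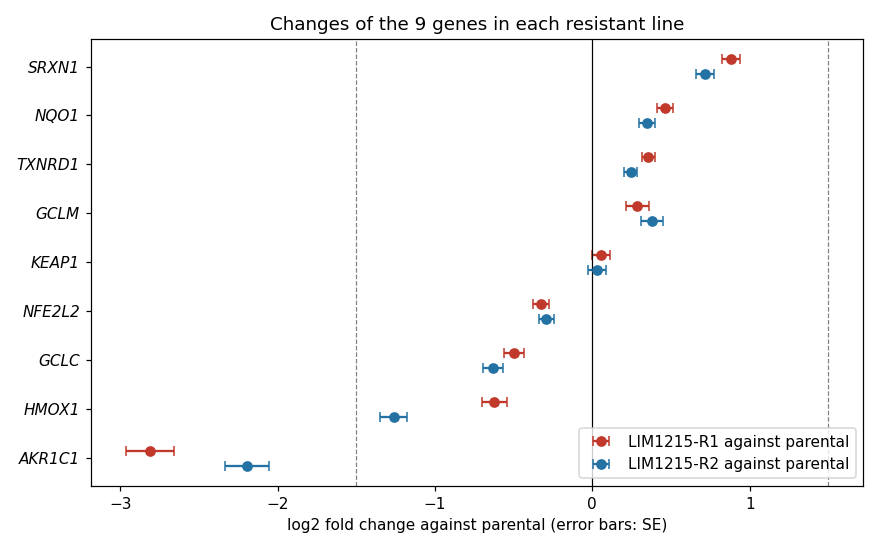
Log2 fold change against LIM1215-parental (x axis) of the 9 genes, for LIM1215-R1 and LIM1215-R2 on 3 libraries per line; bars are SE and dashed lines mark ±1.5. SRXN1 lies farthest right at 0.88 and 0.71, AKR1C1 farthest left at −2.81 and −2.19, and AKR1C1 is the only gene beyond the dashed lines.

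AKR1C1 has near-identical neighbours, which makes its count uncertain. Across the 969 bases of coding sequence of each gene's main transcript (GENCODE, hg38), AKR1C1 and AKR1C2 differ at 19 positions and are 98.0% identical, and AKR1C1 and AKR1C3 are 91.4% identical. AKR1C2 stood at 10.1 ± 1.26 CPM (SD, n = 3) in parental cells, 9.03 ± 1.58 in LIM1215-R1 and 5.75 ± 0.66 in LIM1215-R2, and its log2 fold change was −0.16 in LIM1215-R1 (edgeR adjusted p = 0.383) and −0.81 in LIM1215-R2 (edgeR adjusted p = 4.52e-05). AKR1C3 stood at 3.63 ± 0.51, 3.60 ± 0.94 and 7.75 ± 1.62 CPM in the same order. It rose in LIM1215-R2 by a log2 fold change of 1.08 (edgeR adjusted p = 2.84e-05), with −0.02 in LIM1215-R1 (edgeR adjusted p = 0.959). Reads that the counting moved between AKR1C1 and AKR1C2 would cancel in their sum, which went from 29.7 ± 2.40 CPM in LIM1215-parental to 11.8 ± 2.42 in LIM1215-R1 and 10.0 ± 1.20 in LIM1215-R2, without overlap between parental and resistant libraries. Any reads left uncounted because they match both genes would be missing from the sum as well. Of the counts of the 3 genes, AKR1C1 took 58.8 ± 1.90% in parental cells, 17.8 ± 2.37% in LIM1215-R1 and 24.2 ± 1.56% in LIM1215-R2.

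**Figure D3:**
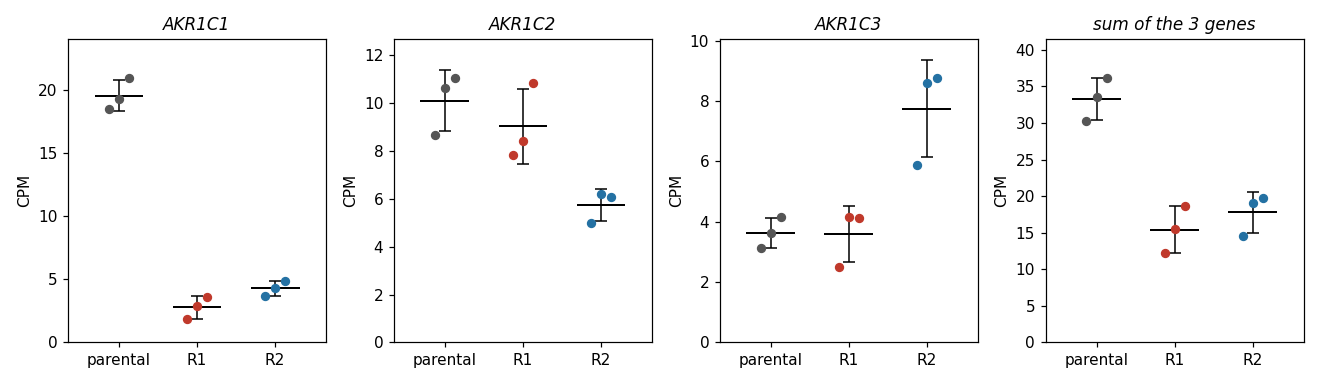
CPM (y axes from 0) of AKR1C1, AKR1C2, AKR1C3 and their sum by line, with 1 point per library and the mean and SD of 3 libraries as lines. AKR1C1 is low in both resistant lines, AKR1C2 is lowest in LIM1215-R2, AKR1C3 is highest in LIM1215-R2, and the sum is 33.3 CPM in LIM1215-parental against 15.4 and 17.8.

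The resistant lines were compared with each other to ask where their changes differed. Between LIM1215-R2 and LIM1215-R1, HMOX1 was the 1 gene of the 9 that passed the test, with a log2 difference of −0.64 ± 0.09 (SE, 95% interval −0.82 to −0.45, edgeR adjusted p = 1.14e-05). Thus 1 of the 9 genes was lower in LIM1215-R2, where 3.77% of all genes tested were lower, and 0 were higher, where 3.39% of all genes were (edgeR; DESeq2 also called 0, and 1, AKR1C1, was higher at an unadjusted edgeR p under 0.05). Here 0 of the 9 were DEGs, and 0.764% of all genes tested were. AKR1C1 differed by 0.62 (95% interval 0.22 to 1.01, edgeR adjusted p = 0.0316) and SRXN1 by −0.16 (−0.28 to −0.05, edgeR adjusted p = 0.0479), both outside the threshold. TXNRD1 differed by −0.11 (−0.20 to −0.02), NQO1 by −0.12 (−0.22 to −0.01) and GCLC by −0.14 (−0.27 to −0.00), with edgeR adjusted p of 0.0876, 0.136 and 0.196. With GC content and length trends removed, TXNRD1 passed as well (−0.13, edgeR adjusted p = 0.00324). For GCLM the difference was 0.09 (−0.05 to 0.24) and for KEAP1 −0.02 (−0.14 to 0.10). These intervals bound the differences, and missing the threshold does not show that the lines are alike.

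Read by library, 8 of the 9 genes had no overlap between LIM1215-R1 and LIM1215-parental, where 44.0% of all genes tested had none. LIM1215-R2 and LIM1215-parental did not overlap for 8 genes either, where 42.8% of all genes did not. Between the resistant lines 5 genes did not overlap, NQO1, TXNRD1, SRXN1 and HMOX1 with lower values in LIM1215-R2 and AKR1C1 with higher ones, where 28.0% of all genes did not. These shares include weakly counted genes, and none was computed for genes that averaged 100 counts or more.

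**Figure D4:**
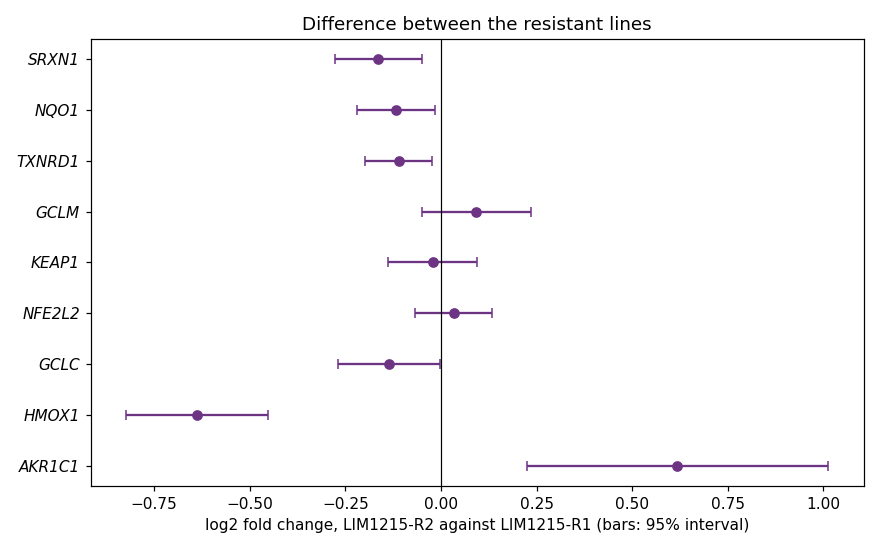
Log2 difference LIM1215-R2 minus LIM1215-R1 (x axis) of the 9 genes, 3 libraries per line; bars are 95% intervals. The interval of HMOX1 is −0.82 to −0.45 and that of AKR1C1 0.22 to 1.01, while those of GCLM, KEAP1 and NFE2L2 include 0.

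The wider redox system was described with 5 lists of genes that hold none of the 9, 88 genes in all, of which 86 were tested. In LIM1215-R1, 33 of the 86 rose and 11 fell (38.4% and 12.8%), beside 14.0% and 13.4% of all genes tested and 20.2% and 20.0% of the well-counted genes above, with a median log2 fold change of 0.14. In LIM1215-R2, 26 rose and 17 fell (30.2% and 19.8%), beside 12.3% and 11.6% of all and 18.1% and 16.8% of well-counted genes, with a median of 0.06. Between the resistant lines, 4 were higher and 21 lower in LIM1215-R2 (4.65% and 24.4%), beside 3.39% and 3.77% of all and 5.65% and 5.40% of well-counted genes, with a median of −0.12. The same shares are the background of the counts for each list that follow. The count of 21 depends on single libraries, being 12 without LIM1215-R2 replicate 1 and 13 without LIM1215-R2 replicate 2.

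Among 12 regulators and partners of NRF2, 5 rose in LIM1215-R1 and 4 in LIM1215-R2, and none fell by the test in either line. SQSTM1 encodes p62, an autophagy receptor that binds KEAP1 and is itself a target of NRF2. It rose from 286 ± 5.23 CPM (SD, n = 3) to 507 ± 8.83 in LIM1215-R1 (log2 fold change 0.83, edgeR adjusted p = 2.17e-15) and 414 ± 12.2 in LIM1215-R2 (0.53, edgeR adjusted p = 2.18e-11). MAFK, a small MAF partner, rose by log2 fold changes of 0.64 and 0.56. BACH1, the repressor of HMOX1, stood at 39.6, 35.1 and 38.5 CPM in parental, LIM1215-R1 and LIM1215-R2 and did not pass (adjusted p = 0.0582 and 0.724 in edgeR). Its log2 fold change was −0.17 in LIM1215-R1, whose libraries lay just below the parental ones, and −0.04 in LIM1215-R2, which overlapped them. BACH1 lies outside the rule for naming genes and was chosen after its values were seen, for its known role at HMOX1. Any part of BACH1 in the levels of HMOX1 was not tested.

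Of 22 other NRF2 targets, 6 rose and 4 fell in LIM1215-R1, and 7 rose and 8 fell in LIM1215-R2, so that this list too held genes of both directions. SLC7A11, the cystine importer subunit that feeds glutathione synthesis, rose from 37.5 ± 0.99 CPM to 96.6 ± 9.06 in LIM1215-R1 (log2 fold change 1.36, edgeR adjusted p = 3.72e-15) and 98.4 ± 5.97 in LIM1215-R2 (1.39, edgeR adjusted p = 2.42e-15). EPHX1, microsomal epoxide hydrolase, rose by 0.71 and 0.38 on the log2 scale, the latter not passing without parental replicate 3 (0.27, edgeR adjusted p = 0.026) or LIM1215-R2 replicate 3 (0.34, edgeR adjusted p = 0.0108). AKR1B10, an aldo-keto reductase, fell from 9.97 ± 1.54 CPM to 6.08 ± 0.39 in LIM1215-R1 and 2.14 ± 0.62 in LIM1215-R2, with a log2 fold change of −2.22 there (edgeR adjusted p = 5.7e-11). FTH1, the ferritin heavy chain that stores iron, fell from 2013 ± 46.8 CPM to 1253 ± 62.2 and 1067 ± 41.5, log2 fold changes of −0.68 and −0.92. FTH1 has processed pseudogenes of like sequence, which makes its count uncertain. CBR3, a carbonyl reductase, fell in LIM1215-R2 only by this test, from 3.90 CPM to 1.99 (log2 fold change −0.98), with 4.23 CPM in LIM1215-R1, and the resistant lines differed by −1.09 (edgeR adjusted p = 0.000212).

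Of 25 glutathione genes tested, 12 rose and 4 fell in LIM1215-R1, and 8 rose and 6 fell in LIM1215-R2. GPX3 and GSTA1 of this list had 0 counts in all libraries. GGT1, which splits extracellular glutathione, rose from 3.53 ± 1.10 CPM to 33.0 ± 1.21 in LIM1215-R1 (log2 fold change 3.27, edgeR adjusted p = 6.83e-18) and 24.3 ± 0.04 in LIM1215-R2 (2.82, edgeR adjusted p = 3.88e-16), and its close paralogs make this count uncertain, which was not tested. GPX1, a glutathione peroxidase, rose by 0.69 and 0.46 on the log2 scale, and CHAC2, which degrades glutathione, by 0.39 and 0.59. GPX8, a peroxidase of the endoplasmic reticulum, fell from 4.20 CPM to 1.31 and 0.292 (log2 fold changes −1.67 and −3.82). GSTA4, a glutathione transferase for lipid aldehydes, fell from 1.66 CPM to 0.291 and 0.250 (−2.48 and −2.70). GGT1, GPX8 and GSTA4 were the 3 DEGs of this list in both lines.

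Of 19 thioredoxin, peroxiredoxin and superoxide genes, 7 rose and 2 fell in LIM1215-R1, and 6 rose and 1 fell in LIM1215-R2. PRDX5, a peroxiredoxin, rose by 0.64 and 0.41 on the log2 scale, and CAT, catalase, fell by 0.45 in LIM1215-R1 and 0.58 in LIM1215-R2. TXNIP, which binds thioredoxin, rose by 0.18 and 0.52, the former not passing without parental replicate 3 (0.16, edgeR adjusted p = 0.0204). The stress-induced SESN2 was at 19.5, 30.2 and 21.3 CPM in parental, LIM1215-R1 and LIM1215-R2, with log2 fold changes of 0.64 (passed) and 0.13 (not passed). SESN3 was at 15.0, 12.0 and 21.1 CPM, with log2 fold changes of −0.33 in LIM1215-R1 and 0.48 in LIM1215-R2, and its decrease in LIM1215-R1 (edgeR adjusted p = 0.00992) did not pass in DESeq2 (adjusted p = 0.0279) or with 7 of the 9 libraries left out singly, all but parental replicate 1 and LIM1215-R1 replicate 1, which gave −0.25 without parental replicate 3 (edgeR adjusted p = 0.0928). It was −0.14 with GC content and length trends removed (edgeR adjusted p = 0.241).

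Of 8 genes that supply NADPH, the reductant for both the glutathione and the thioredoxin systems, 3 rose and 1 fell in LIM1215-R1, and 1 rose and 2 fell in LIM1215-R2. ME1, malic enzyme 1, rose from 90.8 CPM to 133 and 111 (log2 fold changes 0.55 and 0.29). IDH1 fell from 253 CPM to 186 and 153 (−0.45 and −0.73), and IDH2 had −0.18 (edgeR adjusted p = 0.029) and −0.30 (passed, but not without LIM1215-R2 replicate 2, at −0.25 with edgeR adjusted p = 0.0113). In LIM1215-R1 the IDH2 decrease passed with GC content and length trends removed (−0.24, edgeR adjusted p = 0.000331). It also passed with scaling by total counts only (−0.22, edgeR adjusted p = 0.00932).

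**Figure D5:**
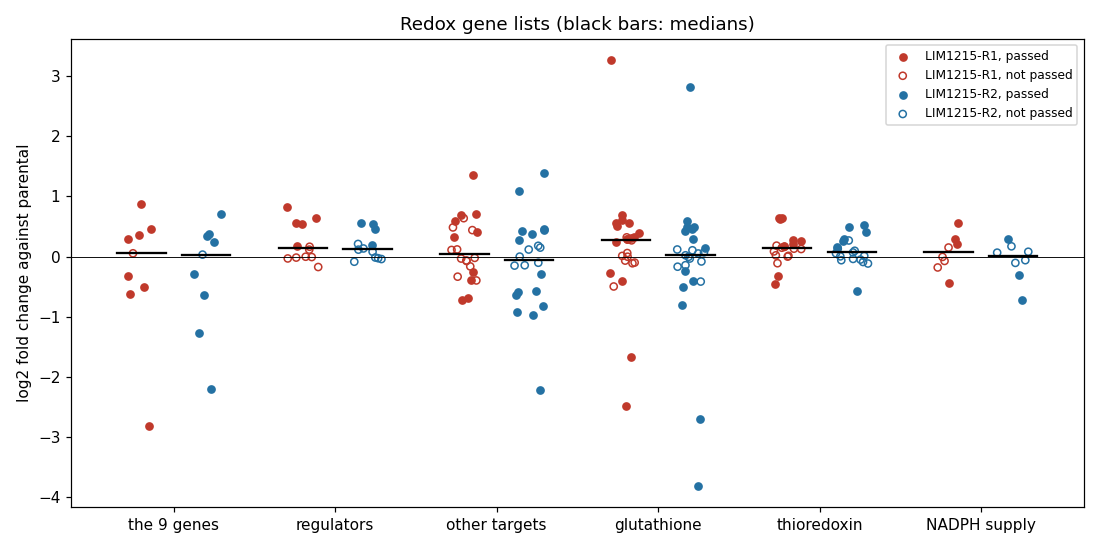
Log2 fold change against LIM1215-parental (y axis) of the 9 genes and of the 5 other redox lists, with 1 point per gene, LIM1215-R1 in red and LIM1215-R2 in blue, filled where the gene passed (adjusted p 0.01 or less), and black bars at the medians. Each list holds genes on both sides of 0, and the 9 genes have medians of 0.05 and 0.03, which are the values of KEAP1.

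Across the 9 libraries, the genes whose log2 CPM ran most like each of the 9 were taken from the same genes, by Pearson r (n = 9). The points share their lines, so r mostly follows the 3 line means and is a description only. TXNRD1 was most like SQSTM1 (r = 0.978) and SRXN1 (0.973), and SRXN1 most like GGT1 (0.983) and SQSTM1 (0.979). NQO1 was most like NFE2L3 (0.977), a relative of NFE2L2, and TXNRD1 (0.963). GCLM was most like SOD2 (0.933) and SLC7A11 (0.881), whereas GCLC was most like MGST2 (0.955) and IDH1 (0.949). HMOX1 was most like GPX8 (0.992) and IDH1 (0.969). NFE2L2 and AKR1C1 were each other's closest gene (0.944), followed by CAT for NFE2L2 (0.942) and GSTA4 for AKR1C1 (0.923). KEAP1, with no clear difference between lines, reached 0.721 with PRDX2 and 0.685 with DPP3.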

How the data were processed

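Poly(A) RNA of the parental and both resistant lines was sequenced from stranded libraries, and libraries were grouped by the line in their titles. The authors aligned reads to hg38 with STAR and deposited raw counts per gene from HTSeq 0.9.1, counted on the reverse strand; the gene annotation is not given in the sources used here. The deposited counts were not normalized. Pairs of libraries of a line differed beyond counting noise (chi-square per degree of freedom 1.89 to 6.58), so none was a duplicate.

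The software was R 4.3.3 with edgeR 4.0.16, which builds on limma 3.58.1. Of 28824 genes with a count, the 19102 with at least 10 over the 9 libraries were scaled by TMM, and 1 quasi-likelihood model held all libraries, grouped into the 3 lines. The 3 pairwise comparisons were tested two-sided with Benjamini-Hochberg adjustment. Genes passed at an adjusted p of 0.01 or less, and DEGs also had a log2 fold change of 1.5 or more in either direction. SEs were derived from the test statistic, and log2 CPM for likeness used a prior count of 2. The test was first tried on simulated counts.

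The 9 genes and the 5 redox lists were chosen with earlier results of these data known, and the lists support nothing by themselves. Named beside the 9 were, from each list, DEGs, the 2 largest increases and 2 largest decreases that passed against parental cells, AKR1C2, AKR1C3 and, for each of the 9, the 2 most alike genes; 1 gene under this rule is not reported here. Alternatives were DESeq2 1.42.0 with and without shrinkage, other size factors and filters, fits to 6 libraries, a replicate block, GC content and length trends, other thresholds and each library left out. Positions, lengths and GC content came from GENCODE on hg38 (GC content and length for 86.3% of genes tested), and promoters from RefSeq GRCh38.p14.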

Additional observations from a re-analysis of the deposited data

Results flagged for a closer look

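Differences between the resistant lines, given as log2 values for LIM1215-R2 minus LIM1215-R1, passed the test between these lines (edgeR quasi-likelihood, adjusted p at most 0.01) for 16 of the named genes. Of the 9 genes, HMOX1 was lower in LIM1215-R2 by a difference of −0.64 (edgeR adjusted p = 1.14e-05). Among the other NRF2 targets and regulators, SQSTM1 (−0.29), EPHX1 (−0.34), AKR1B10 (−1.49), FTH1 (−0.23), CBR3 (−1.09) and AKR1C2 (−0.65) were lower in LIM1215-R2, and AKR1C3 (1.10) was higher. Among glutathione and thioredoxin genes, GGT1 (−0.44), GPX8 (−2.14), PRDX5 (−0.22) and SESN2 (−0.51) were lower, and SESN3 (0.81) and TXNIP (0.34) were higher. Among NADPH supply genes, ME1 (−0.26) and IDH1 (−0.28) were lower. SESN3 had log2 fold changes of opposite sign against parental cells, −0.33 in LIM1215-R1 and 0.48 in LIM1215-R2. Some of these calls were lost when 1 library was left out. EPHX1 did not pass without LIM1215-R1 replicate 2 or 3 or without LIM1215-R2 replicate 1 or 2 (−0.29 to −0.35), and PRDX5 without the same libraries (−0.19 to −0.23) or with GC content and length trends removed (−0.09, edgeR adjusted p = 0.0813). GGT1 (−0.43 to −0.44) and ME1 (−0.22 to −0.27) did not pass without LIM1215-R1 replicate 3, LIM1215-R2 replicate 1 or LIM1215-R2 replicate 2, and AKR1C2 did not without the first of these (−0.50) or the second (−0.56). AKR1C2 and AKR1C3 share sequence with AKR1C1, so that their counts are uncertain.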

How the results depend on the processing

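For the 9 genes in the 3 comparisons, 27 log2 fold changes were recomputed under 21 alternatives each, and no passing call changed direction. Apart from the fold threshold, the calls against parental cells that were lost were those of GCLM in LIM1215-R1. With each library left out in turn, 3 to 4 of the 9 genes rose and 4 to 4 fell in LIM1215-R1, 4 to 4 rose and 4 to 4 fell in LIM1215-R2, and between the resistant lines 0 to 0 were higher and 1 to 1 lower. When a log2 fold change of 1 or more in either direction was also required, 0 rose and 1 fell in LIM1215-R1, 0 rose and 2 fell in LIM1215-R2, and 0 were lower in LIM1215-R2 than in LIM1215-R1. The redox lists then kept 2 higher and 2 lower in LIM1215-R1, 3 and 3 in LIM1215-R2, and 1 and 3 between the resistant lines. At an adjusted p of at most 0.05, AKR1C1 was added as 1 higher and SRXN1 made 2 lower between the resistant lines. After removal of GC content and length trends, 2 were lower there, TXNRD1 (−0.13, edgeR adjusted p = 0.00324) joining HMOX1, and SLC7A11 turned to −0.16 (edgeR adjusted p = 0.00607) from 0.03. With libraries left out, list genes numbered 29 to 37 higher and 9 to 11 lower in LIM1215-R1, 20 to 26 and 16 to 17 in LIM1215-R2, and 3 to 4 and 12 to 25 between the resistant lines. The causes were not tested.

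Same-numbered libraries of different lines did not all deviate together (r −0.106 to 0.274 over 9 pairs). Differently numbered libraries gave r of −0.265 to 0.191 over 18 pairs. The best match had the same number in 7 of 18 cases. Because these ranges overlap, the check cannot decide whether the numbers pair the libraries. With the replicate block, between the resistant lines 1 gene was higher in LIM1215-R2, AKR1C1 (0.62, edgeR adjusted p = 0.00774). The replicate block with GC content and length trends removed gave 4 lower, NQO1 (−0.11), GCLC (−0.15) and TXNRD1 (−0.13) joining HMOX1, and SLC7A11 at −0.16 (edgeR adjusted p = 0.0019).

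Low counts limit the values of AKR1C1 in the resistant lines and of GPX8, GSTA4, AKR1B10 and CBR3, and 3 libraries per line of a replicate type called technical limit every comparison.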
